A study of Mus musculus with 15 samples.

Results

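Oxidative phosphorylation genes were followed in RNA sequencing of mouse small intestinal organoids, which are epithelial cultures grown from crypts. The members are the protein-coding genes whose symbols begin with Nduf, Sdh, Uqcr, Cox4 to Cox8 or Atp5, together with the 13 protein genes of the mitochondrial genome. The rule names 110 genes in the annotation, and 109 of the 43629 genes of the count table are members, 96 nuclear and 13 mitochondrially encoded. They fall into 38 subunits of complex I, 8 complex I assembly factors, 8 genes of complex II, 8 of complex III, 18 of complex IV and 16 of complex V (the ATP synthase).

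The 13 libraries compared are 5 WT, 4 P-Rspo3 and 4 Apc, on a mixed strain given as C57B6/129. WT were 4 APC flox/flox lines without recombination and 1 Dox naive culture of the P-Rspo3 transgenic line, all in ENR, a medium that contains R-spondin. Apc were taken, by the shared numbers in the titles, to be the same 4 flox lines as Apc delta/delta. In these both copies of the Wnt pathway suppressor Apc are deleted, and they were grown in EN, the medium without R-spondin. P-Rspo3 were doxycycline-treated cultures carrying a Ptprk-Rspo3 rearrangement made by inducible Cas9, also in EN. They were polyclonal populations selected without R-spondin, so they are not clones. Their titles are EN15d, EN4d, EN_M and EN_F, and the sources used here do not say what the endings stand for. Medium and genotype cannot be told apart in the comparisons with WT, whereas Apc and P-Rspo3 shared a medium. Apc and P-Rspo3 still differed in line of origin, Cas9 transgene and doxycycline treatment, which cannot be told apart from genotype. The same holds for P-Rspo3 against the 4 flox lines of WT. Nothing in the labels says that the libraries of P-Rspo3 came from separate animals, so p-values measure the spread between these libraries.

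Each library held 28902729 to 35528495 counted reads. Rspo3, a secreted Wnt agonist, had 539 to 1079 counts in P-Rspo3, 0 to 1 in WT and 7 to 57 in Apc. The count over the whole Apc gene was higher in Apc (9265 to 10953) than in WT (4046 to 6810), and a whole-gene count does not test the deletion of an exon. Ptprk, the other partner of the rearrangement, had a log2 fold change of -0.72 in P-Rspo3 against WT (adjusted p = 0.153). Epithelial identity markers summed to 4356 to 5683 normalized CPM (counts scaled to a common library size) over the 13 libraries, with Krt18 higher (1.11) and Krt19 lower (-0.81) in Apc than in WT. Of 12 markers of stromal, immune, endothelial and muscle cells, 9 were too low to test in Apc against WT. Their sum was 2.28 to 3.49 CPM in WT, 2.09 to 3.21 in P-Rspo3 and 5.67 to 13.3 in Apc, where Cd68 and Pdgfra were higher and Pecam1 lower. Their part in the results below was not tested.

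Oxidative phosphorylation turns the energy of NADH and succinate into ATP at the inner mitochondrial membrane. Complex I oxidizes NADH and complex II (succinate dehydrogenase) oxidizes succinate, complex III passes the electrons to cytochrome c, complex IV reduces oxygen, and complex V makes ATP from the proton gradient. All of complex II is encoded in the nucleus, whereas the other complexes join nuclear subunits with subunits made from mitochondrial DNA. In the intestine, absorptive enterocytes are rich in mitochondria, and Wnt signalling maintains the proliferating cells of the crypt.

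Promoters of nuclear members are known for sites of a few shared factors, and their sequences are shown here because most of these genes moved together. RefSeq windows (GRCm38.p6) from 250 bases before to 50 bases after the start were found for 78 of the 96 nuclear members. Both strands were searched for GCATGCGC (NRF1), CCGGAAG (ETS factors, which include GABP), AAGATGGC (YY1) and TCAAGGTCA (ERR). The first was present in 12 of the 78 (15.4%), against 5.60% of the 11171 genes with a window that were tested in Apc against WT. The ETS letters were present in 21 (26.9% against 18.9%), those of YY1 in 10 (12.8% against 4.995%) and those of ERR in 2 (2.56% against 0.340%). Any of the 4 was present in 37 members (47.4% against 27.02%). The ETS and YY1 letters can overlap by 3 bases, which occurred in 0 member windows. By group, the ETS letters were present in 4 of 33 windows of complex I subunits (12.1%), 2 of 7 of their assembly factors, 5 of 7 of complex II, 2 of 5 of complex III, 3 of 13 of complex IV (23.1%) and 5 of 13 of complex V (38.5%). Complex IV held any of the 4 motifs in 3 of 13 windows and complex I subunits in 14 of 33 (42.4%). These shares are a description without a test, and a match is not a bound site. Below are 100 upstream bases of 3 members with a match in them and of 3 complex IV isoforms with none in the window. Each stretch ends before the RefSeq start or the annotated start of the gene, whichever lies further upstream. The bases are read in the direction of the gene, with matches in capitals.
Ndufa6, chr15:82354323-82354422, minus strand: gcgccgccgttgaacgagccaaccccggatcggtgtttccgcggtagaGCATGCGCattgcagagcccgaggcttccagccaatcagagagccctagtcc
Sdhd, chr9:50603850-50603949, minus strand: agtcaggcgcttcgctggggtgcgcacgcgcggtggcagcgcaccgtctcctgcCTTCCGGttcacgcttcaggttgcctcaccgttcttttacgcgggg
Atp5g3, chr2:73911327-73911426, minus strand: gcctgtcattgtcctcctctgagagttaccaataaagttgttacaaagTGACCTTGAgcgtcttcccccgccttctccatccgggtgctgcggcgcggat
Cox7a1, chr7:30184044-30184143, plus strand: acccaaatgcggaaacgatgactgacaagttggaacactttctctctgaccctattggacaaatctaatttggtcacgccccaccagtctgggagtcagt
Cox7a2, chr9:79759879-79759978, minus strand: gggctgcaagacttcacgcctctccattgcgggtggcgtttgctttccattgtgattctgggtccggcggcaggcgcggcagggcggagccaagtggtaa
Cox6b2, chr7:4753095-4753194, minus strand: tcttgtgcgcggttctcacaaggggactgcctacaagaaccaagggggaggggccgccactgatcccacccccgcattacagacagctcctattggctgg

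The nuclear members together took a smaller share of all counted reads in Apc than in the other groups. Their share was 1.999%, 1.79%, 1.79%, 1.74% and 1.92% in WT replicates 1, 2, 5, 6 and naive, a mean of 1.85% ± 0.108 (SD, n = 5). In P-Rspo3 it was 1.63%, 1.80%, 1.97% and 1.92% in replicates 15d, 4d, M and F, a mean of 1.83% ± 0.149 (SD, n = 4). In Apc it was 1.39%, 1.32%, 1.34% and 1.21% in replicates 1, 2, 5 and 6, a mean of 1.32% ± 0.0767 (SD, n = 4). Each Apc library lay below each of the other 9, and P-Rspo3 and WT overlapped. The mitochondrially encoded members took 3.05% to 4.10% of counts in Apc, 3.64% to 5.11% in WT and 4.50% to 5.35% in P-Rspo3. Here Apc overlapped with WT through WT replicate 1 alone, which had 3.64% where the other WT libraries had 4.87% or more. In bulk RNA, fewer cells of a type and less RNA per cell cannot be told apart.

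**Figure D1:**
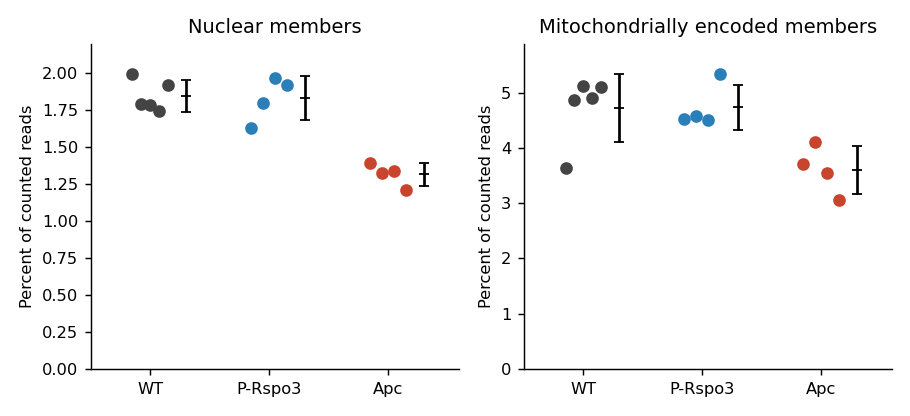
Share of all counted reads on nuclear (left) and mitochondrially encoded members (right), in percent, with 1 point per library and the mean ± SD of each group as a bar. The 4 Apc libraries lie at 1.21% to 1.39% on the left, below all WT and P-Rspo3 libraries, and on the right 1 WT library at 3.64% lies among them.

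The first comparison asked how loss of Apc altered these genes relative to WT. Of the 99 members tested, 88 were lower in Apc and 0 higher (edgeR quasi-likelihood test, Benjamini-Hochberg adjusted p under 0.05), with 89 at an unadjusted p under 0.05 and 0 higher by DESeq2. Over all 16749 genes tested, 29% were called lower and 30% higher. The median log2 fold change was -0.71 for the members and 0.00 for all genes. Of the 88, 14 fell by more than 1 on the log2 scale, 59 by 0.5 to 1 and 15 by less. Normalized values did not overlap in 84 of the 99, each Apc library lying below each WT library, against 25% of all genes tested. Apc and WT libraries with a shared number were taken to derive from 1 line. On that basis 87 of the 99 members (87.9%) were lower in all 4 lines, against 31.3% of all genes. With the line as a block 86 members were called lower, all of them among the 88, and Atp5g2 and mt-Nd2 were lost.

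The scale of these changes depends on how libraries are made comparable. TMM over all libraries of the series, as used for the CPM, gave Apc libraries factors of 1.13 to 1.17 and WT libraries 0.921 to 0.962. Each pairwise fit computed its own TMM factors over the groups it compared. With library totals alone the median of all genes was 0.29 and that of nuclear members -0.42, a difference of -0.71. With TMM that difference was also -0.71, with DESeq2 size factors -0.72, and with limma on log2(FPKM + 0.1) -0.70. With limma on log2(FPKM + 1) the difference was smaller, -0.58. On totals alone 72 members were called lower and 2 higher (Sdhaf2 and Ndufaf7), and 69.6% of all calls were increases, against 50.8% with TMM. The log2 fold changes below are on the TMM scale, on which the median gene did not move.

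**Figure D2:**
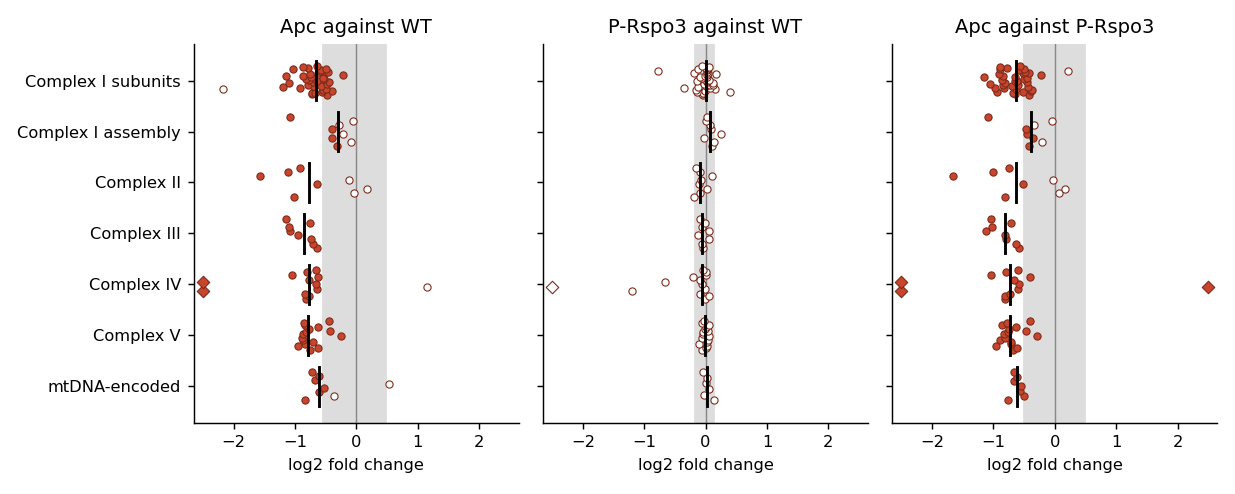
Log2 fold change of each tested member by complex in the 3 comparisons, filled where the adjusted p was under 0.05, with the median of each complex as a black bar. The grey band and line are the interquartile range and median of all genes tested, and diamonds at the edges stand for Cox6a2, Cox7a1 and Cox6b2, whose values lie beyond the axis. In both comparisons with Apc the members of complexes III and V lie left of zero throughout, and against WT no P-Rspo3 member is filled.

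Complex I was lower in 37 of 38 subunits in Apc, with a median log2 fold change of -0.65. The largest called fall was that of Ndufa6, an accessory subunit. It had 181, 202, 213, 148 and 160 CPM in WT replicates 1, 2, 5, 6 and naive, and 68.3, 84.3, 91.1 and 74.6 in Apc replicates 1, 2, 5 and 6. The ranges were far apart, and the log2 fold change was -1.20 (SE 0.128, adjusted p = 1.55e-05). The accessory subunits Ndufb9 (-1.14, SE 0.0878) and Ndufb10 (-1.10, SE 0.0906), and Ndufs7 (-1.03, SE 0.0825), a core subunit that carries an iron-sulfur cluster, also fell by more than 1, with adjusted p of 1.48e-06, 2.33e-06 and 1.93e-06. The smallest called difference was -0.21 (SE 0.0671, adjusted p = 0.0182) for Ndufc2, at 62.7 to 70.0 CPM in Apc and 72.1 to 83.6 in WT. Ndufc2 was not lower on totals alone (0.08). Ndufa4, first assigned to complex I and since found in complex IV, had a log2 fold change of -0.49 (SE 0.119, adjusted p = 0.00428), whereas its paralogue Ndufa4l2 had 0 to 7 counts per library (-2.17, SE 1.05, adjusted p = 0.0995).

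The assembly factors of complex I build the complex and are not part of it. They were lower in Apc in 4 of 8 cases, against 29% of all genes tested, with a median of -0.30. Ndufaf8 was the lowest, at 8.81 to 10.3 CPM in Apc against 17.8 to 21.0 in WT, a log2 fold change of -1.08 (SE 0.0942, adjusted p = 3.59e-06). Ndufaf1 had the smallest called difference (-0.32, SE 0.0784, adjusted p = 0.00457), and on totals alone it had -0.03. Ndufaf2, Ndufaf4, Ndufaf6 and Ndufaf7 were not called, with log2 fold changes of -0.06 to -0.28. Whether subunits and assembly factors differed was not tested.

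In complex II the 4 catalytic and membrane subunits were all lower in Apc, and 1 of their 4 assembly factors was, a share near the 29% of all genes. Whether subunits and assembly factors differed was not tested here either. Sdhb, the iron-sulfur subunit (chromosome 4, 140961203 to 140979193, plus strand), had 337, 326, 347, 264 and 371 CPM in WT replicates 1, 2, 5, 6 and naive. It had 302, 324, 373 and 412 in P-Rspo3 replicates 15d, 4d, M and F, and 114, 117, 119 and 98.7 in Apc replicates 1, 2, 5 and 6. The highest Apc library thus lay below 264, the lowest of the others, and the log2 fold change against WT was -1.57 (SE 0.109, adjusted p = 7.30e-07). Outside the isoforms described below this was the lowest called value of any member. Sdhc and Sdhd anchor the enzyme in the membrane. Sdhc had 115 to 130 CPM in Apc and 236 to 295 in WT (-1.11, SE 0.0805, adjusted p = 9.82e-07). Sdhd had 171 to 229 CPM in Apc and 346 to 413 in WT (-0.92, SE 0.0972, adjusted p = 1.49e-05).

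Sdha, the flavoprotein that oxidizes succinate, had 406 to 463 CPM in Apc and 788 to 924 in WT (-1.02, SE 0.0773, adjusted p = 1.34e-06). Of the 4 assembly factors Sdhaf3 was lower (-0.64, SE 0.105, adjusted p = 0.000353). Sdhaf1, Sdhaf2 and Sdhaf4 were not called, with log2 fold changes of -0.04, 0.18 and -0.11 and SE of 0.136, 0.0823 and 0.118, although each Apc library had more Sdhaf2 than each WT library and limma on log2(FPKM + 1) called Sdhaf2 higher (0.42). For Sdhaf1, 69.0% of its 50-base stretches also lie in the overlapping gene E130208F15Rik, so its reads may be shared.

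**Figure D3:**
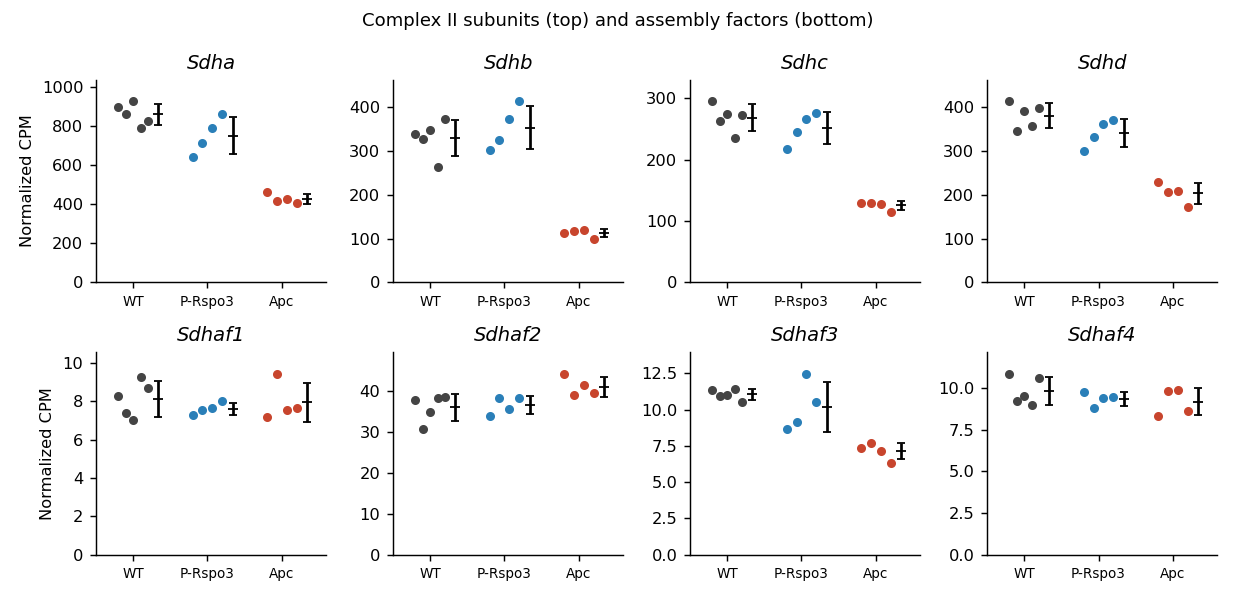
Normalized CPM of the 4 complex II subunits (top) and 4 assembly factors (bottom), with 1 point per library and the mean ± SD of each group as a bar. The subunits are lower in all 4 Apc libraries, with Sdhb at 98.7 to 119 CPM, while Sdhaf1 and Sdhaf4 overlap between groups and Sdhaf2 lies higher in Apc, at 39.1 to 44.3 CPM, than in WT, at 30.7 to 38.6 CPM.

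Complex III was lower in Apc in 8 of 8 genes, with a median log2 fold change of -0.85. Uqcrq, a small subunit, had 71.7 to 86.2 CPM in Apc and 164 to 196 in WT (-1.15, SE 0.0788, adjusted p = 6.42e-07). Uqcrfs1, the Rieske iron-sulfur protein, had 121 to 141 and 253 to 301 CPM in the same order (-1.09, SE 0.0806, adjusted p = 1.12e-06). Uqcrc2, a core subunit, had 250 to 293 and 540 to 620 CPM (-1.09, SE 0.0781, adjusted p = 8.99e-07). The smallest difference, in Uqcr10, was -0.65 (SE 0.0989, adjusted p = 0.000209). The groups did not overlap in any of the 8.

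Complex V was lower in Apc in 16 of 16 genes, with a median of -0.80. Atp5c1, the central stalk subunit gamma, had the lowest value, with 244 to 287 CPM in Apc against 483 to 548 in WT (-0.95, SE 0.0759, adjusted p = 1.94e-06). The proton-carrying c subunit is made by 3 genes that encode the same mature protein. Atp5g1 and Atp5g3 had log2 fold changes of -0.88 (SE 0.105, adjusted p = 3.45e-05) and -0.87 (SE 0.102, adjusted p = 3.04e-05), and Atp5g2 had the smallest difference of the complex, -0.25 (SE 0.0892, adjusted p = 0.0325). Of the summed FPKM of the 3 genes, a measure per transcript length, Atp5g2 held 11.4% to 13.7% in Apc and 7.81% to 9.21% in WT, and these ranges did not overlap. Atp5g3 held 69.5% to 71.9% and 72.5% to 74.3%. The value of Atp5g2 was 0.04 on totals alone, its call was lost in 5 of the 9 fits that left out 1 library (WT replicates 1 and naive and Apc replicates 1, 2 and 6), and 38.3% of its stretches lie in other genes, mostly a pseudogene.

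Complex IV held the widest range of values, and it has isoform pairs with a broadly expressed and a tissue-restricted form. The extremes were the tissue-restricted forms Cox6a2 (-6.52) and Cox6b2 (1.15, not called). Of its 18 genes, 13 were tested and 12 of them were lower in Apc, with a median of -0.77. Cox7b, a small subunit, had 108 to 131 CPM in Apc and 218 to 266 in WT (-1.05, SE 0.0836, adjusted p = 1.81e-06). Cox7a2l, which joins complexes III and IV in supercomplexes, had the smallest called difference (-0.63, SE 0.0659, adjusted p = 1.36e-05). Cox4i1, the main form of the regulatory subunit IV, has no FPKM row and was left out by the filter. It had 11752 to 13997 counts in Apc, 15057 to 17954 in WT and 14430 to 17583 in P-Rspo3, and without the FPKM filter its log2 fold change was -0.75 (SE 0.0839, adjusted p = 6.40e-06). Its lung form Cox4i2 had 0 to 3 counts per library. Cox8a (-0.66, SE 0.0920, adjusted p = 0.000107) was the detected form of subunit VIII, since Cox8b, Cox8c and Cox7b2 had 0 or 1 count.

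Cox7a1, the heart and muscle form of subunit VIIa, nearly vanished in Apc. It lies on chromosome 7 (30184144 to 30186078, plus strand) and had 554, 512, 906, 391 and 649 counts in WT replicates 1, 2, 5, 6 and naive. It had 408, 283, 330 and 545 counts in P-Rspo3 replicates 15d, 4d, M and F, and 27, 23, 22 and 27 in Apc replicates 1, 2, 5 and 6. The Apc libraries were thus nearly alike and far below all others. The log2 fold change was -5.04 against WT (SE 0.328, adjusted p = 4.48e-07) and -4.37 against P-Rspo3 (SE 0.266, adjusted p = 1.73e-06). The broad form Cox7a2 had -0.76 against WT (SE 0.0849, adjusted p = 2.08e-05). By FPKM, Cox7a1 made 17.9% to 35.7% of both forms in WT, 15.4% to 24.7% in P-Rspo3 and 1.20% to 1.87% in Apc.

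Cox6a2, the heart and muscle form of subunit VIa, was lowly expressed and showed the same order. It had 40, 26, 34, 11 and 23 counts in WT, 8, 14, 13 and 12 in P-Rspo3 and 0, 0, 0 and 1 in Apc, with the replicates in the order used above. Summed over libraries, WT exceeded Apc 140-fold per normalized read (95% exact interval 24.7 to 5580, counting error only, from 134 counts against 1). The fitted log2 fold change was -6.52 (SE 0.731, adjusted p = 2.22e-05), which at such counts depends on the prior count. With at most 1 count per Apc library, Cox6a2 passed the FPKM filter through WT, so the filter fixed the direction of this difference. The broad form Cox6a1 had -0.83 (SE 0.0772, adjusted p = 5.40e-06). By FPKM, Cox6a2 was at most 0.254% of both forms, so its loss hardly moved the sum.

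Cox6b2, the testis form of subunit VIb, differed from all other members. It had 2, 25, 45, 34 and 18 counts in WT, 0, 0, 1 and 0 in P-Rspo3 and 11, 17, 150 and 123 in Apc, again in the order used above. The P-Rspo3 libraries were at or near 0, and Apc and WT overlapped, with replicates 5 and 6 highest in both groups. In both comparisons with P-Rspo3, Cox6b2 passed the FPKM filter through the other group, so the filter fixed the direction there. Apc was not called against WT (log2 fold change 1.15, SE 0.811, adjusted p = 0.250). Its broad form Cox6b1 was lower in Apc (-0.63, SE 0.0872, adjusted p = 9.79e-05). Cox6b2 was at most 2.11% of the FPKM of both forms.

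**Figure D4:**
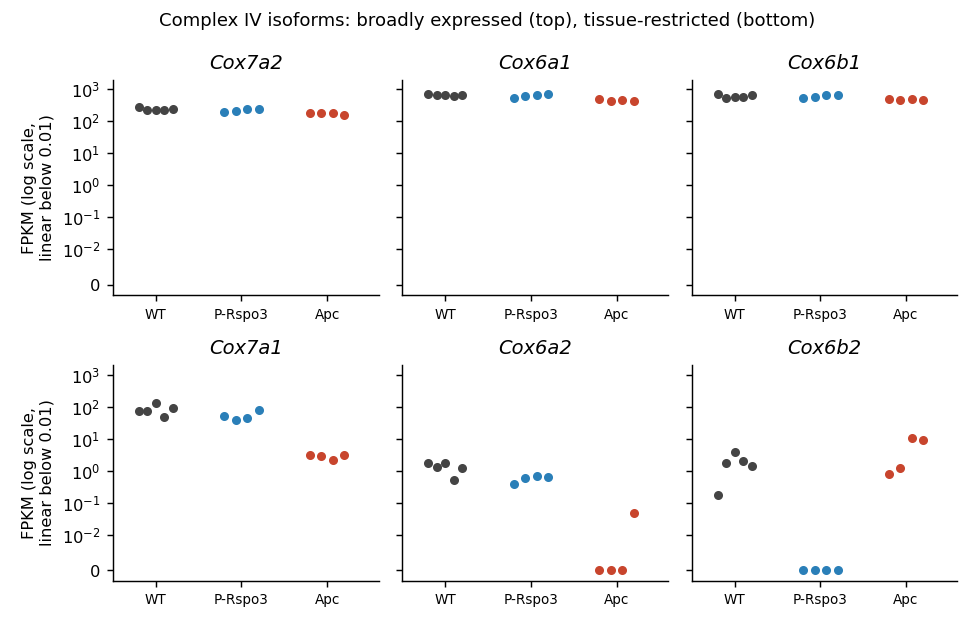
FPKM of 3 pairs of complex IV isoforms, broadly expressed above and tissue-restricted below, on a log axis that is linear below 0.01, with 1 point per library. Cox7a1 falls from 47.6 or more in WT to 3.09 or less in Apc, Cox6a2 is listed at 0 in 3 Apc libraries, and Cox6b2 is listed at 0 in all 4 P-Rspo3 libraries.

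Of the 13 mitochondrially encoded genes, 8 were tested and 6 were lower in Apc. mt-Co1, the catalytic subunit of complex IV, was the most abundant, with 1.73% to 2.63% of all counts in WT and 1.41% to 1.80% in Apc. It had 567127, 741905, 763424, 759586 and 670527 counts in WT and 511314, 550343, 514427 and 500185 in Apc, so WT replicate 1 was nearest to Apc. The log2 fold change was -0.84 (SE 0.143, adjusted p = 0.000447). The other called genes encode complex I subunits: mt-Nd6 (-0.72), mt-Nd4 (-0.67), mt-Nd1 (-0.61), mt-Nd5 (-0.60) and mt-Nd2 (-0.52), with adjusted p of 0.00203 to 0.00950. mt-Cytb, the complex III subunit, had -0.37 (SE 0.159, adjusted p = 0.0663), and without WT replicate 1 it had -0.44 and was called. Without that library 7 were lower, and on totals alone 4. By limma 3 were lower on log2(FPKM + 1) and 0 on log2(FPKM + 0.1), and mt-Co1, whose FPKM is listed at 0 in 4 of the 5 WT libraries, was called higher.

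The mitochondrial ratios are given by line, and their spread was not tested against that of the nuclear members. The median log2 ratio of Apc over WT within a line was -0.04, -0.35, -0.72 and -0.98 in lines 1, 2, 5 and 6 for the 8 tested mitochondrial genes. For the 91 nuclear members it was -0.73, -0.61, -0.64 and -0.71. Of the 8 genes, 4 were lower in all 4 lines. The nuclear fall was thus of similar size in each line, while the mitochondrial ratio ranged from near 0 to a fall larger than the nuclear one. The ratio near 0 was that of line 1. Its WT library, replicate 1, had a mitochondrial share of 3.64%, against 4.87% to 5.11% in the other WT libraries.

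The remaining mitochondrial genes had almost no counts, so their level could not be read from this table. mt-Co2, mt-Atp6, mt-Co3, mt-Nd4l and mt-Nd3 had at most 14 counts in any library, and mt-Nd3, the only one of these that was tested, had a log2 fold change of 0.54 (SE 1.19, adjusted p = 0.734). Between 98.0% and 100% of their 50-base stretches also occur in pseudogenes on chromosome 1 (24611535 to 24616197), where copies of mitochondrial genes lie. These 7 pseudogenes together had 34 to 1026 counts per library. The part of shared sequence in the low counts was not tested. mt-Nd4 and mt-Co1 shared 62.2% and 51.1% of their stretches, and mt-Nd1, mt-Nd6 and mt-Cytb shared 0%. mt-Atp8 had 0 counts, and it overlaps mt-Atp6 in position. It shared 0%, but the search covered annotated transcripts only, so a copy without an annotation would be missed.

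**Figure D5:**
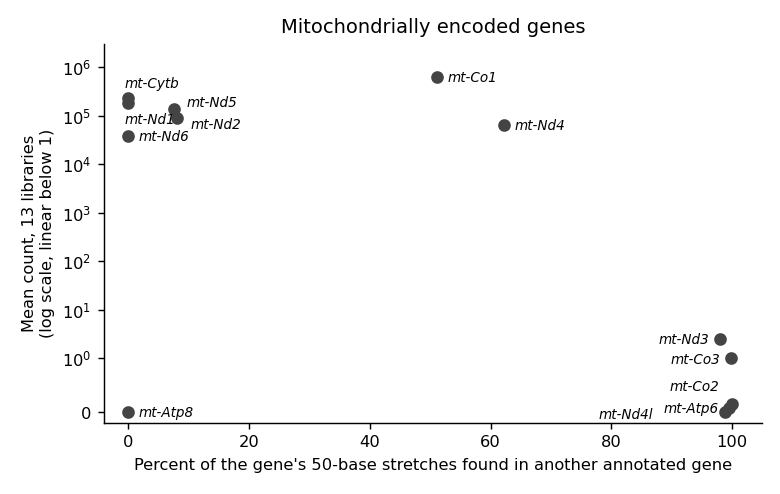
Mean count over the 13 libraries (log axis, linear below 1) of each mitochondrially encoded gene against the percent of its 50-base stretches that also occur in another annotated gene. The 5 genes at 98.0% or more have almost no counts, and 7 genes at 62.2% or less are abundant. mt-Atp8 has 0 counts at 0%, and copies without an annotation are not seen by this measure.

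The second comparison asked whether P-Rspo3 organoids differed from WT. Of 96 members tested, 0 were called in either direction (edgeR, adjusted p under 0.05), and of all 15992 genes tested 0.00625% were called higher and 0% lower. The FPKM filter left out 13 members, among them the abundant Cox4i1 and mt-Co1. Without the filter these had log2 fold changes of -0.05 (SE 0.106) and -0.06 (SE 0.171) and were not called. At an unadjusted p under 0.05 there were 8 members, 3 higher and 5 lower, and DESeq2 called 3 lower (Cox6b2, Ndufs5 and Cox7a2l). The median log2 fold change of the members was -0.01, and the median SE was 0.108. By complex the medians lay between -0.09 (complex II) and 0.08 (complex I assembly).

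The members with the smallest p were Cox6b2 and Ndufs5 among the lower and Ndufa13 and Ndufaf4 among the higher. Ndufs5, an accessory subunit of complex I, had 18.3, 13.8, 15.3, 14.4 and 11.2 CPM in WT and 6.67, 8.97, 8.86 and 9.44 in P-Rspo3, without overlap (-0.78, SE 0.165, adjusted p = 0.108). DESeq2, a fit of all 3 groups together and the fit without WT replicate naive each called it lower, and 21.7% of its stretches lie in a processed pseudogene. Apc had 9.12 to 10.3 CPM, overlapping with P-Rspo3, and was not called against it (0.21, SE 0.139, adjusted p = 0.233). Cox6b2 had a fitted value of -6.09 (SE 1.1, adjusted p = 0.0957), and from 124 counts against 1 WT exceeded P-Rspo3 100.1-fold (95% exact interval 17.6 to 3987, counting error only). Without WT replicate 1, which had 2 counts, or without WT replicate naive it was called.

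Ndufa13, an accessory subunit also known as GRIM-19, had 76.2 to 92.1 CPM in the WT flox lines and 110 in WT replicate naive. P-Rspo3 had 104 to 130 CPM (0.40, SE 0.122, adjusted p = 0.210). The single WT library of the same transgenic line thus lay within the P-Rspo3 range, and without it Ndufa13 was called higher (0.49, adjusted p = 0.0316). Ndufaf4 had 61.8 to 68.6 CPM in P-Rspo3 and 46.0 to 60.8 in WT (0.25, SE 0.105, adjusted p = 0.328).

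The third comparison set Apc against P-Rspo3, both grown in EN but of different lines of origin. Of 97 members tested, 89 were lower in Apc and 1, Cox6b2, higher (edgeR, adjusted p under 0.05), with 27.7% of all 16456 genes called lower and 28.7% higher. Cox6b2 passed the FPKM filter through Apc and Cox6a2 through P-Rspo3, so the filter fixed the direction of both. The median log2 fold change was -0.65. Because both this comparison and the first use the Apc libraries, their values are given side by side and not counted as separate evidence. All 8 genes of complex III, all 16 of complex V and the 4 Sdh subunits were lower, with medians of -0.80, -0.73 and -0.91. The Sdhaf genes had 1 of 4 lower, Sdhaf3 (-0.52, SE 0.152, adjusted p = 0.0165).

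In complex IV the lowest called values were those of Cox6a2 (-5.31, SE 0.631, adjusted p = 8.80e-05) and Cox7a1, given above. The lowest called value of each other group of nuclear members was that of Ndufb9 among complex I subunits (-1.15, SE 0.111, adjusted p = 2.44e-05), Ndufaf8 (-1.08, SE 0.137, adjusted p = 0.000129), Sdhb (-1.66, SE 0.117, adjusted p = 3.85e-06), Uqcrc2 (-1.12, SE 0.0918, adjusted p = 9.45e-06) and Atp5c1 (-0.96, SE 0.0864, adjusted p = 1.63e-05). Ndufb10, Sdhc, Uqcrfs1, Uqcrq and Cox7b also fell by more than 1. The smallest called fall of each group was -0.23 for Ndufc2 among complex I subunits (adjusted p = 0.0493), -0.36 for Ndufaf3 among their assembly factors, -0.52 for Sdhaf3 in complex II, -0.59 for Uqcr10 in complex III, -0.40 for Cox7a2l in complex IV and -0.28 for Atp5g2 in complex V. The calls of Ndufc2 and Atp5g2 were lost in 7 and 6 of the 8 fits without 1 library (Apc replicates 1, 2 and 6 and P-Rspo3 replicates 4d and M for both, with Apc replicate 5 and P-Rspo3 replicate F for Ndufc2 and P-Rspo3 replicate 15d for Atp5g2). All 7 mitochondrial genes tested were lower, from -0.49 for mt-Cytb to -0.76 for mt-Co1. On totals alone 3 of the 7 were called lower, and by limma with either pseudocount 0 were lower and mt-Co1, listed at 0 FPKM in all 4 P-Rspo3 libraries, was higher. Cox6b2 had a fitted value of 7.32 (SE 1.35, adjusted p = 0.00130), from 301 counts in Apc against 1, a ratio of 232 (95% exact interval 41.4 to 9204, counting error only).

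Genes that work beside the respiratory chain moved in the same direction in Apc, to different degrees. Of 16 genes for electron carriers and their synthesis, 15 were lower than in WT and 0 higher, with a median of -0.85. The lowest was Pdss1, which starts the tail of coenzyme Q, at 25.8 to 33.0 CPM in Apc and 71.1 to 92.2 in WT (-1.49, SE 0.0966, adjusted p = 4.30e-07). Of 13 tricarboxylic acid cycle genes 12 were lower and 1 higher, with a median of -0.85. Mdh2, mitochondrial malate dehydrogenase, was lowest at 346 to 404 CPM against 1103 to 1746 (-2.01, SE 0.139, adjusted p = 6.75e-07), and Idh3a, a subunit of isocitrate dehydrogenase, was the higher one (0.21, SE 0.0808, adjusted p = 0.0431). Whether either list differed from the members was not tested.

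The other mitochondrial lists are given by their counts and medians, and differences between lists were not tested. Of 77 mitochondrial ribosomal proteins 45 were lower and 1 higher (median -0.28), from Mrps31 (-0.95, SE 0.0753) to Mrps6 (0.38, SE 0.132). Of 38 assembly factors outside the member rule 24 were lower and 1 higher (median -0.35), from Cox10 (-1.10, SE 0.0972), which makes heme for complex IV, to Nubpl (0.49, SE 0.152). Of 23 import and structure genes 17 were lower and 2 higher (median -0.34). There Mfn2, which fuses outer membranes, had -1.27 (SE 0.101), and Slc25a4, the heart and muscle form of the ADP/ATP carrier, rose from 19.2 to 38.4 CPM in WT to 142 to 168 in Apc (2.39, SE 0.159, adjusted p = 5.18e-07). Slc25a4 thus went opposite to the heart and muscle forms Cox7a1 and Cox6a2.

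Of 19 regulators of mitochondrial genes, 5 were higher and 5 lower, with a median of 0.02, shares near those of all genes tested (30% higher and 29% lower). Ppargc1a (PGC-1 alpha), a coactivator of mitochondrial gene expression, had 8.28 to 11.7 CPM in Apc, 21.0 to 57.1 in WT and 13.9 to 28.5 in P-Rspo3 (Apc against WT -1.88, SE 0.280, adjusted p = 0.000178). Pprc1, a related coactivator, was higher (0.35, SE 0.0844, adjusted p = 0.00427). In P-Rspo3 against WT, 0 genes were called in each of these lists, and DESeq2 called 1 assembly factor higher.

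Markers of differentiated cells moved with these results. All 11 enterocyte markers were lower in Apc than in WT, with a median of -8.81. Their summed level was 487 to 567 CPM in Apc, 9729 to 20632 in WT and 8112 to 15341 in P-Rspo3. Apoa4, an apolipoprotein of absorptive cells, had 4 to 18 counts in Apc and 16072 to 65268 in WT (-12.46, SE 0.676, adjusted p = 1.33e-07). All 8 markers of other lineages were lower, Muc2 of goblet cells the lowest (-5.11, SE 0.285). Of 9 crypt and proliferation markers 8 were higher, Ascl2 of stem cells the most (1.54, SE 0.171), while Olfm4 had -9.78 (SE 0.627). The part of this difference in cell types in the fall of the oxidative phosphorylation genes was not tested.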

How the data were processed

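Oxidative phosphorylation genes were analysed in polyA RNA of 13 organoid libraries. Per the labels and the study's methods, STAR alignments to GRCm38 were the input of the authors for the deposited raw counts (HTSeq 0.6.0, whole numbers for each Ensembl identifier) and the deposited FPKM (Cufflinks 2.2.1). The annotation release and strand setting are not given in the sources used here. Values of overlapping genes and of near-identical copies are therefore uncertain. Members and lists were chosen with earlier results of these data known. Symbols and coordinates came from a GENCODE annotation of GRCm38, which paired 42462 of 43629 count rows.

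Counts were tested with edgeR 4.0.16 (R 4.3.3, TMM, default glmQLFit and glmQLFTest), with 1 fit for each pair of groups, on genes that reached 0.1 FPKM in 4 or more of its libraries. P-values were adjusted over all genes tested, and a gene was called at an adjusted p under 0.05. SE was derived from the test statistic. CPM are counts scaled to the TMM-adjusted library size. FPKM served for filters, shares within isoform pairs and limma 3.58.1; DESeq2 1.42.0 was an alternative. The fits were also run on simulated counts in which few genes changed. That setting is unlike Apc against WT, so it does not test the scaling of that comparison. The share of each member's 50-base stretches found in another gene's transcripts was computed, and no reads or genes were removed by it. Totals were 28902729 to 35528495 counts per library. Alternatives changed the normalization, test, filter, unit, libraries and pairing; library totals without TMM and shares without mt-Co1 were chosen after seeing the data. Of the count table, 192 genes have no FPKM row.

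Groups came from the labels. The libraries titled LIPO and NAIVE_F, whose titles and genotypes conflict, entered no comparison. Named members were the mitochondrial genes, isoform pairs, the highest and lowest called value per complex or list, called members with an absolute log2 fold change above 1, and the 2 smallest p per direction for P-Rspo3; names in counts of 5 or fewer, Sdhd, Cox7b2 and the uncalled assembly factors were chosen after their values were seen. Replicates differed beyond counting noise in all 22 pairs (chi-square per gene 20.5 or more). Same-numbered Apc and WT libraries were taken as the same line from the numbers in their titles. Their deviations from the group means correlated with a median of 0.118 (-0.0197 to 0.209, 4 pairs), against -0.0258 (-0.186 to 0.136) for the 12 other pairs. These ranges overlap, so the pairing rests on the titles. The protein sequences of the members were not analysed here.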

Additional observations from a re-analysis of the deposited data

Results flagged for a closer look

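Of 132 groups of 4 or 5 libraries examined, 5 had 1 library far from the rest by Dixon's criterion at 95%. Chance meets it in about 1 in 20 groups, so 5 is no more than chance would give. The mitochondrially encoded share of counts was 3.64% in WT replicate 1, where the other WT libraries had 4.87% to 5.11%. It was 5.35% in P-Rspo3 replicate F, where the others had 4.50% to 4.58%. Sdhc had 115 CPM in Apc replicate 6 and 128 to 130 CPM in the other Apc libraries. Ndufa4l2 had 0.104 CPM in Apc replicate 5 and 0 in the other Apc libraries, and mt-Co3 had 0.365 CPM in P-Rspo3 replicate F and 0 in the others, both from few counts.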

How the results depend on the processing

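Of the counts of called members and the medians by complex, 14 counts and 48 medians moved, and 110 counts and 448 medians did not. Under every alternative run, more members were lower than higher in both comparisons with Apc. For Apc against WT, library totals alone (chosen after seeing the data) called 2 members higher and 72 lower, with median log2 fold changes of -0.42 (Nuclear members), -0.36 (Complex I subunits), -0.0103 (Complex I assembly), -0.49 (Complex II), -0.56 (Complex III), -0.48 (Complex IV), -0.50 (Complex V), -0.31 (mtDNA-encoded). For Apc against WT, limma on log2(FPKM + 1) called 3 members higher and 71 lower, with median log2 fold changes of -0.42 (Nuclear members), -0.40 (Complex I subunits), -0.10 (Complex I assembly), -0.45 (Complex II), -0.57 (Complex III), -0.51 (Complex IV), -0.49 (Complex V), -0.28 (mtDNA-encoded). For Apc against WT, limma on log2(FPKM + 0.1) called 3 members higher and 65 lower, with median log2 fold changes of -0.42 (Nuclear members), -0.41 (Complex I subunits), -0.11 (Complex I assembly), -0.51 (Complex II), -0.57 (Complex III), -0.51 (Complex IV), -0.50 (Complex V), -0.28 (mtDNA-encoded). For Apc against P-Rspo3, library totals alone (chosen after seeing the data) called 3 members higher and 65 lower, with median log2 fold changes of -0.40 (Nuclear members), -0.37 (Complex I subunits), -0.13 (Complex I assembly), -0.37 (Complex II), -0.54 (Complex III), -0.47 (Complex IV), -0.47 (Complex V), -0.35 (mtDNA-encoded). For Apc against P-Rspo3, limma on log2(FPKM + 1) called 6 members higher and 62 lower, with median log2 fold changes of -0.42 (Nuclear members), -0.40 (Complex I subunits), -0.13 (Complex I assembly), -0.30 (Complex II), -0.56 (Complex III), -0.46 (Complex IV), -0.46 (Complex V), -0.27 (mtDNA-encoded). For Apc against P-Rspo3, limma on log2(FPKM + 0.1) called 6 members higher and 61 lower, with median log2 fold changes of -0.44 (Nuclear members), -0.44 (Complex I subunits), -0.14 (Complex I assembly), -0.33 (Complex II), -0.56 (Complex III), -0.46 (Complex IV), -0.46 (Complex V), -0.27 (mtDNA-encoded). With all 3 groups in 1 fit, 1 member (Sdhaf2) was higher in Apc against WT and 1 (Ndufs5) lower in P-Rspo3 against WT, where DESeq2 called 3 lower, besides 1 outside assembly factor higher and 1 crypt marker lower. With WT of the flox lines alone, P-Rspo3 had 1 member higher and 2 lower. Increases were 69.6% of all calls in Apc against WT on totals alone and 69.2% and 69.1% by limma, against 50.8%, and 68.5%, 68.1% and 68.4% against 50.9% in Apc against P-Rspo3. Leaving out 1 library gave 86 to 89 members lower in Apc against WT, 83 to 88 lower in Apc against P-Rspo3, and 0 to 1 higher and 0 to 2 lower in P-Rspo3 against WT. The calls in the last came without WT replicate 1 (1 lower) or WT replicate naive (1 higher, 2 lower). With the line as a replicate block, which pairs the same lines, 86 members were lower in Apc against WT and the nuclear median was -0.69, so the calls of Atp5g2 and mt-Nd2 were lost and none was added. As a percent of summed FPKM the nuclear share came to 3.93%, 3.91% and 2.97% (WT, P-Rspo3, Apc), and the mitochondrial share to 6.42%, 5.99% and 7.55%. Without mt-Co1 the mitochondrial share was 2.46%, 2.54% and 2.05% of counts and 5.96%, 5.99% and 5.28% of FPKM. Of single genes, 14 values reversed. On totals alone and by limma with pseudocounts 1 and 0.1, Ndufc2 had 0.0789, 0.0840 and 0.0845 against WT and 0.0307, 0.00900 and 0.00909 against P-Rspo3, and Atp5g2 had 0.0421, 0.00991 and 0.00997 against WT. By limma mt-Co1, listed at 0 FPKM in most other libraries, had 10.93 and 13.58 against WT and 13.70 and 17.02 against P-Rspo3. mt-Nd3 had -0.74 without Apc replicate 5, and up to 0.95 without Apc replicate 1. A further 15 values of named genes passed the threshold under an alternative and 81 no longer passed it. Beyond these values, the cause was not tested.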

Other observations

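FPKM of mt-Co1 is listed at 0 in 9 of the 15 libraries of the series, all with at least 600871 counts of that gene, while the 6 libraries with a value have at most 567127 counts. All 4 Apc libraries have a value and all 4 P-Rspo3 libraries do not. As a share of summed FPKM, the mitochondrially encoded members came to 7.55% in Apc, 6.42% in WT and 5.99% in P-Rspo3, so Apc was highest, opposite to the counts. Without mt-Co1 the means were 5.28%, 5.96% and 5.99%, and Apc and WT overlapped. As a percent of counts without mt-Co1 they were 2.05%, 2.46% and 2.54%.

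The libraries LIPO and NAIVE_F were in no group. Their nuclear members took 1.93% and 1.71% of counts and their mitochondrially encoded members 4.53% and 5.10%. Sdhb had 332 and 291 CPM, Cox7a1 had 396 and 272 counts, Cox6b2 had 2 and 4 counts, and Ndufs5 had 17.8 and 16.1 CPM.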
